A study of Mus musculus with 4 samples.

Results

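The 46 genes described here encode eukaryotic translation initiation factors (eIFs) and proteins named after them. They were taken from the table of normalized expression by name, as symbols starting with Eif and a factor number from 1 to 6, whose average over all 4 libraries reached 1 FPKM. FPKM, or fragments per kilobase of transcript per mapped sequencing total, is a level scaled to transcript length and library size. The pattern matched 54 of the 23492 symbols. Leaving out the Eif2ak kinases, Eif2s3x and Eif2s3y removed 6, and Eif4e1b (listed at 0 in every library) and Eif5a2 (0.0598 to 0.393 FPKM) lay below the limit. The limit uses the mean of all libraries, so a gene high in 1 group alone could pass it; the lowest of the 46, Eif2b3, averaged 4.52 FPKM, and every gene had at least 2.08 FPKM in each library. By factor number there were 5 genes of eIF1, 9 of eIF2, 13 of eIF3, 15 of eIF4, 3 of eIF5 and 1 of eIF6.

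RNA-seq was made from the epithelium of the jejunum of adult mice on a mixed 129xC57/Bl6xSvJ background. The control group held 2 mice without Cre, and the other group 2 mice labelled Hnf4a;Cdx2 double-knockout, in which Cre was to remove conditional alleles of both genes. Mice of both groups were given 1 mg tamoxifen on 5 successive days, so the drug does not separate the groups, whereas presence of Cre does and cannot be told apart from loss of the genes. The promoter that drives Cre, the deleted exons, the sex of the mice and their age beyond adult are not stated by the sources used here. The labels call the 2 samples of each group biological replicates. Epithelium was released with 5 mM EDTA, which can also release lymphocytes that lie within the epithelium.

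Initiation is the step at which the small ribosomal subunit, carrying the initiator tRNA, is brought to an mRNA and set on its start codon. eIF2 delivers the tRNA as a complex with GTP, eIF2B recharges eIF2 with GTP, and stress kinases slow the cycle by phosphorylating the eIF2 alpha subunit. eIF3 is a large scaffold on the small subunit, the eIF4 proteins recognise and unwind the capped end of the mRNA, eIF1 and eIF1A guard start codon choice, and eIF5, eIF5B and eIF6 act around the joining of the subunits. In the intestine, the crypt cells that renew the epithelium divide fast and depend on a high rate of protein synthesis. Many of these factors are regulated by phosphorylation, which RNA levels do not show.

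The targeted genes did not both follow the labels. Hnf4a stood at 156 and 202 FPKM in controls and at 31.6 and 48.2 in those labelled as double knockouts. Cdx2 stood at 70.9 and 65.2 FPKM in controls and was higher, at 159.8 and 161, in the libraries from labelled double knockouts, which goes against its label. These values sum over whole genes, deleted exons or not, so they do not show whether Cdx2 protein was lost. For this reason the group is called the labelled double knockout, and every direction below rests on the labels. Limma called both genes (adjusted p = 0.0147 for Hnf4a and 0.0150 for Cdx2). Without control replicate 1 or 2 the adjusted p was 0.0624 and 0.0875 for Hnf4a and 0.0696 and 0.0868 for Cdx2. Leaving out double knockout replicate 2 also ended the call of Cdx2, at a limma adjusted p of 0.0602. The epithelial markers Epcam (526 to 1281 FPKM), Krt8, Krt19 and Vil1 were abundant in every library. Of 8 epithelial markers tested, Epcam and Vil1 were called lower and Krt19 higher in the labelled double knockout, beside 9.57% of all genes tested. Of 12 leukocyte markers 7 were tested and Itgam was called lower, again beside 9.57% of all genes tested. The 12 summed to 21.6 and 31.7 FPKM in controls and 17.7 and 30.3 in the labelled double knockout. The 12 markers of stroma, muscle and endothelium summed to 4.19 to 9.40 FPKM, and their part in the results was not tested.

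Most initiation factor genes stood slightly higher in the labelled double knockout, but the test called only Eif2b1 and Eif2b3. Of the 46 genes, 38 had a log2 fold change above 0, or 82.6%, beside 52.3% of the 10883 genes tested, and 6 of the 46 changed sign under another processing or without 1 library (Eif3f, Eif4h, Eif4ebp2, Eif4g2, Eif4a2 and Eif4enif1). The median log2 fold change was 0.29 over the 46 genes and 0.02 over all genes tested. Both labelled double knockout libraries lay above both controls in 34 genes, or 73.9%, beside 31.2% of all genes tested, and below both controls in 5, or 10.9%, beside 29.5%. The remaining 7 overlapped between the groups. All of these values are on the log2(FPKM + 1) scale or are plain orderings of FPKM. The genes share the same 4 libraries and are not independent of each other, so these shares are descriptions without a test.

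Limma with Benjamini-Hochberg adjustment over all genes tested called 2 of the 46 at an adjusted p under 0.05, both higher, or 4.35%. Among all genes tested 9.57% were called, and 3.77% were called higher, so the share of called initiation factors was near the background. At an unadjusted p under 0.05 there were 13 higher, or 28.3%, beside 13.3% of all genes, and 2 lower, or 4.35%, beside 15%. All genes together had 410 genes called higher and 631 lower, and 482 higher and 451 lower when the FPKM estimated for each library alone were used. In that version the median of all genes shifted to 0.17 and that of the initiation factors to 0.45. FPKM is a share of each library, and in a whole epithelium a change in RNA per cell and a change in the proportion of cell types cannot be told apart. The 16 markers of crypt and dividing cells summed to 617 and 313 FPKM in controls and 556 and 646 in the labelled double knockout. Olfm4, the most abundant, weighed most in these sums, at 337 and 135 FPKM in controls and 336 and 346 in the labelled double knockout. Limma called none of the 16 (0 also at an unadjusted p under 0.05). Of the 16, 13 had a log2 fold change above 0, beside 52.3% of all genes tested. Only in Ccnb2 were both labelled double knockout libraries above both controls, an order seen in 31.2% of all genes tested. The part of these markers in the levels of the initiation factors was not tested.

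**Figure D1:**
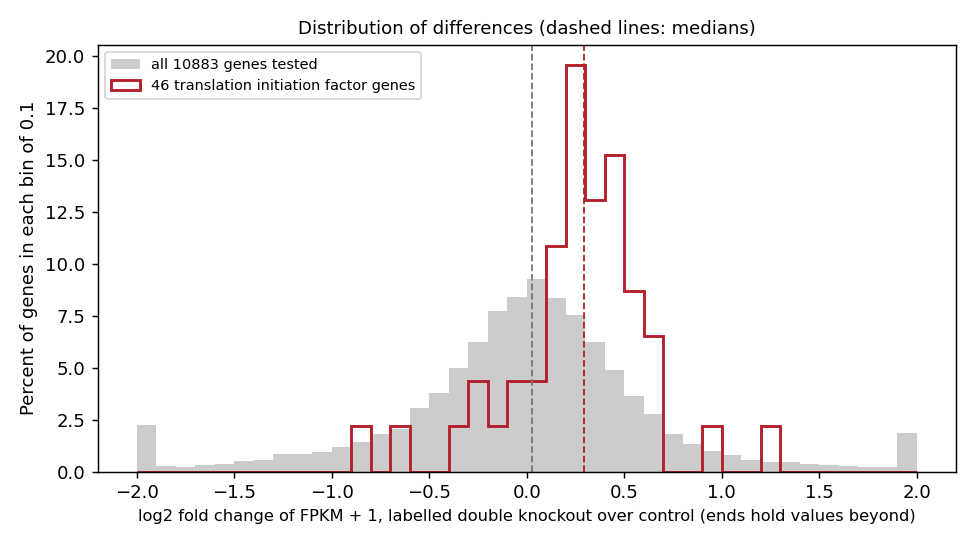
Percent of genes in each bin of 0.1 of the log2 fold change of FPKM + 1, labelled double knockout over control, for all 10883 genes tested (grey) and the 46 translation initiation factor genes (red outline), with the end bins holding values beyond them. The medians (dashed lines) lie at 0.02 for all genes and 0.29 for the initiation factors, whose values run from -0.80 to 1.30.

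**Figure D2:**
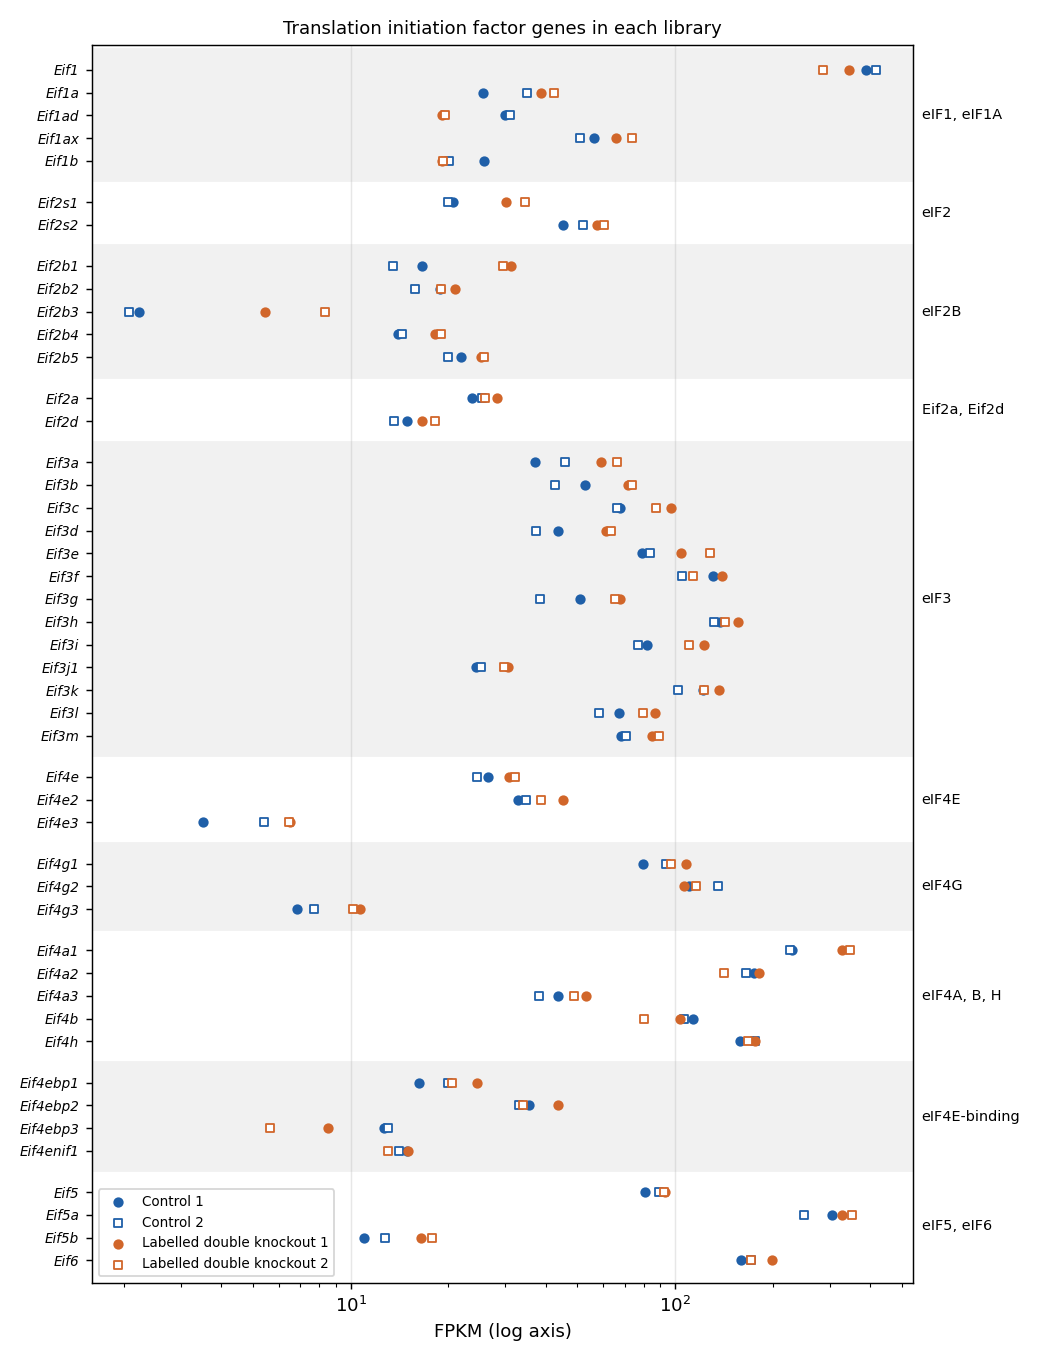
FPKM (log axis) of each of the 46 genes in the 2 control libraries (blue) and the 2 labelled double knockout libraries (orange), grouped by complex. Eif2b3 is the lowest gene in controls, and the orange symbols lie to the right of the blue ones in 34 genes.

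The 2 genes called higher both encode subunits of eIF2B, the exchange factor that sets how much eIF2 is ready to carry initiator tRNA. Eif2b1 (chromosome 5, 125020223 to 125029066, mm9), the regulatory alpha subunit, stood at 16.7 and 13.6 FPKM in controls and at 31.3 and 29.4 in the labelled double knockout. Both labelled double knockout libraries lay well above both controls, a 2.01-fold rise in mean FPKM. On the log2 scale the change was 0.97 ± 0.17 (SE), with a limma adjusted p of 0.0333. Eif2b3 (chromosome 4, 116692013 to 116759457, mm9), the gamma subunit that forms the catalytic part with epsilon, stood at 2.23 and 2.08 FPKM in controls and at 5.44 and 8.32 in the labelled double knockout. The groups again did not overlap, and the labelled double knockout libraries differed more from each other than the controls did. Its mean rose 3.19-fold, and on the log2 scale by 1.30 ± 0.23 (SE), with a limma adjusted p of 0.0365. The authors' deposited table also called this pair, Eif2b1 at 14.4 and 29.1 FPKM in control and knockout (q = 0.0187) and Eif2b3 at 2.06 and 6.62 (q = 0.0155). That table calls 13.2% of the genes it tested and no other gene among the 46, and it was made from the same libraries.

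Eif2b1 lost its call without any 1 of the 4 libraries, and Eif2b3 without any 1 but double knockout replicate 1. The limma adjusted p of Eif2b1 was 0.0765 when control replicate 1 was left out, 0.124 for control replicate 2, and 0.126 and 0.119 for double knockout replicates 1 and 2. For Eif2b3 it was 0.113, 0.143, 0.0443 and 0.123 in the same order. With no limit on low levels it was 0.0548 for Eif2b1 and 0.0823 for Eif2b3, and with the replicate number as a block 0.0564 for both. The log2 fold changes in these 4 fits ran from 0.83 to 1.11 for Eif2b1 and from 1.03 to 1.56 for Eif2b3.

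The other eIF2B subunits differed in the same direction by less and were not called. Eif2b2 (beta) averaged 17.3 ± 2.20 FPKM in controls and 20.0 ± 1.43 in the labelled double knockout, Eif2b4 (delta) 14.2 ± 0.306 and 18.6 ± 0.593, and Eif2b5 (epsilon), the catalytic subunit, 20.9 ± 1.36 and 25.5 ± 0.397 (SD, n = 2 each). In each of these both labelled double knockout libraries lay above both controls, an order seen in 31.2% of all genes tested. The limma adjusted p-values of Eif2b2, Eif2b4 and Eif2b5 were 0.482, 0.182 and 0.288. Among the 5 subunits, Eif2b3 had the lowest FPKM in every library, and the gene with the highest FPKM was Eif2b5 in both controls and Eif2b1 in both labelled double knockout libraries. Per transcript length, the highest subunit exceeded the lowest 9.79-fold and 9.59-fold in controls and 5.75-fold and 3.54-fold in the labelled double knockout. The ratio of Eif2b3 to Eif2b5 was 0.102 and 0.104 in controls and 0.216 and 0.322 in the labelled double knockout. For Eif2b1 to Eif2b5 it was 0.762 and 0.680 against 1.24 and 1.14. The narrower range came from Eif2b3, the lowest subunit, and Eif2b1 passed from below Eif2b5 to above it.

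**Figure D3:**
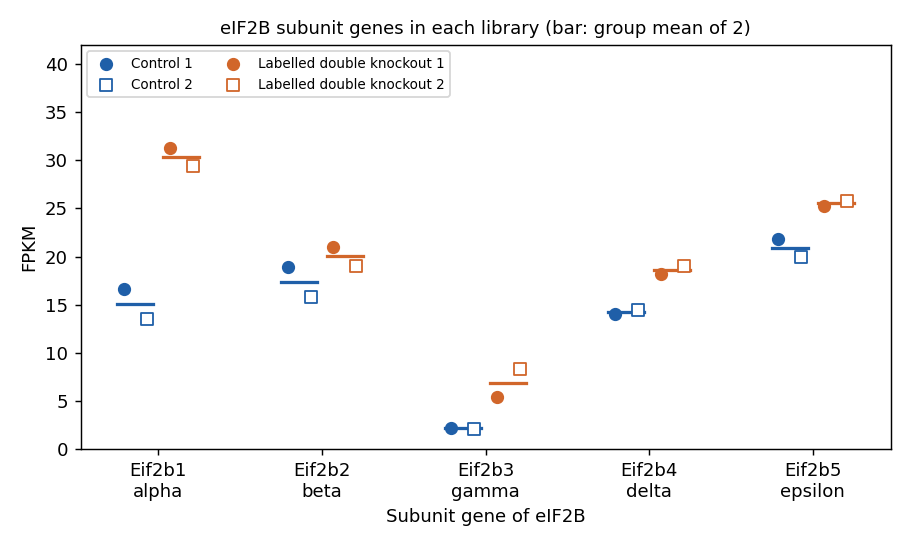
FPKM of the 5 eIF2B subunit genes in each library, with bars at the group means of 2 libraries. Eif2b1 lies at 13.6 and 16.7 FPKM in controls and 29.4 and 31.3 in the labelled double knockout, and Eif2b3 at 2.08 and 2.23 against 5.44 and 8.32.

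RefSeq promoter windows (build GRCm38.p6) were matched for 36 of the 46 genes, in 48 windows. Eif2b3 had no entry. The 250 bases before the start site are shown for Eif2b1, which rose, for Eif2s1, the eIF2 subunit whose phosphorylated form blocks eIF2B, and for Eif1ad, whose difference had the opposite sign. Capitals mark matches to any of 7 short motifs searched on both strands: the E-box CACGTG, the ETS core CCGGAAG, the CCAAT box, the GC box GGGCGG, the cyclic AMP response element TGACGTCA, an HNF4 half-site form CAAAGTCCA and a CDX form TTTATGG.
Eif2b1, chr5:124579132-124579381, minus strand: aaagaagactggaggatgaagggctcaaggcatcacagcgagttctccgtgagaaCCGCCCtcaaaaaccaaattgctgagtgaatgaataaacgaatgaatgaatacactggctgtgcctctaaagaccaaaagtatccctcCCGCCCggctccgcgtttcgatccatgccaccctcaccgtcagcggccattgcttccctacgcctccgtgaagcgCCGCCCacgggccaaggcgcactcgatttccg
Eif2s1, chr12:78861822-78862071, plus strand: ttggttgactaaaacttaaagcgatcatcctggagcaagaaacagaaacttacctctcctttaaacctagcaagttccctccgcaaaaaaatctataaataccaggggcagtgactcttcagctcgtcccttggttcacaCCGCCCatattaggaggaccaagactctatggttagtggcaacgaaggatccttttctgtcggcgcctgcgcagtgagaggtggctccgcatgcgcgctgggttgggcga
Eif1ad, chr19:5366563-5366812, plus strand: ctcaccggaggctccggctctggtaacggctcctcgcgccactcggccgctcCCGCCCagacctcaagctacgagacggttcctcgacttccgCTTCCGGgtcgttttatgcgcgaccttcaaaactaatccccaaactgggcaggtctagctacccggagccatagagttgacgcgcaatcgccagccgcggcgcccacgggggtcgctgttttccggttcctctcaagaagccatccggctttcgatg
Eif2b1 held 3 GC boxes, starting 195, 107 and 32 bases before the start, and Eif2s1 held 1 at 110 bases. Eif1ad held a GC box at 198 bases and an ETS core at 157 bases.

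Over the 48 windows, GC boxes were in 68.8%, against 32.7% of all 32851 windows of the table. ETS cores were in 22.9% against 6.91%, E-boxes in 20.8% against 6.02%, and CCAAT boxes in 22.9% against 33.8%. The cyclic AMP response element, the HNF4 form and the CDX form were in none of the 48, and in 1.55%, 0.384% and 2.43% of all windows. The initiation factor windows were richer in GC (median 62.4% against 52.4%) and in CpG (median of 20 against 6 per 250 bases). Several windows can belong to 1 gene. A match is a run of letters and not a known binding site, and the absence of these exact letters says nothing of binding elsewhere.

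eIF2 itself has 3 subunits. Eif2s1, the alpha subunit and target of the stress kinases, stood at 20.6 and 20.0 FPKM in controls and at 30.2 and 34.5 in the labelled double knockout. The groups did not overlap, and the log2 fold change of 0.64 (95% interval 0.25 to 1.04, limma, adjusted p = 0.0683) did not pass the threshold. It did pass with the FPKM estimated for each library alone (log2 fold change 0.87, limma, adjusted p = 0.0497). Eif2s2, the beta subunit and the most abundant of the 9 eIF2 genes, stood at 45.3 and 52.2 FPKM against 57.5 and 60.6, a log2 difference of 0.27 ± 0.16 (SE) with a limma adjusted p of 0.324. The gamma subunit comes from Eif2s3x on the X chromosome and Eif2s3y on the Y, which the rule leaves out. Eif2s3x stood at 34.2 and 39.7 FPKM against 51.7 and 51.2, and Eif2s3y at 30.4 and 35.2 against 24.2 and 38.9 (limma, adjusted p = 0.132 and 0.856). Eif2a and Eif2d encode single proteins outside the eIF2 complex that can bring initiator tRNA to the ribosome. Eif2a averaged 24.6 ± 1.21 FPKM in controls and 27.1 ± 1.58 in the labelled double knockout, and Eif2d 14.3 ± 0.925 and 17.4 ± 1.15 (SD, n = 2 each). Neither was called (limma, adjusted p = 0.611 and 0.321), although all 9 eIF2 genes were higher in both labelled double knockout libraries than in both controls, an order seen in 31.2% of all genes tested.

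The 13 eIF3 subunit genes stood slightly higher in the labelled double knockout, and none was called. All 13 had log2 fold changes above 0, from 0.10 to 0.62 with a median of 0.46, beside 52.3% of all genes tested above 0. The exception among the alternatives was Eif3f, which came to -0.06 when control replicate 2 was left out and to -0.05 when double knockout replicate 1 was. In 12 of 13, the exception again being Eif3f, both labelled double knockout libraries lay above both controls, beside 31.2% of all genes tested. At an unadjusted p under 0.05 limma had 7 higher, beside 13.3% of all genes, namely Eif3a, Eif3b, Eif3c, Eif3d, Eif3e, Eif3g and Eif3i. These 7 include subunits of the core (Eif3a, Eif3b, Eif3c, Eif3e), an RNA-binding subunit (Eif3g) and Eif3d, which can itself bind the cap of some mRNAs.

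Eif3d had the highest fold change of the 13. It stood at 43.7 and 37.3 FPKM in controls and at 61.4 and 63.7 in the labelled double knockout, so the groups lay clearly apart. Its log2 difference was 0.62 ± 0.16 (SE) with a limma adjusted p of 0.0808, and the 95% interval ran from 0.21 to 1.03. Eif3b stood at 52.8 and 42.7 FPKM in controls and 71.6 and 73.7 in the labelled double knockout. Eif3a averaged 41.5 ± 6.24 and 62.7 ± 5.09 FPKM, and Eif3g 44.7 ± 8.89 and 66.4 ± 1.63 in control and labelled double knockout (SD, n = 2 each). Eif3i, a WD-repeat subunit, averaged 79.4 ± 3.40 and 117 ± 8.67 FPKM, Eif3e 81.5 ± 3.46 and 116 ± 16.9, and Eif3c 67.0 ± 1.18 and 92.4 ± 6.71 (SD, n = 2 each). For these 6 genes the limma adjusted p lay between 0.0987 and 0.151.

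Eif3h, the most abundant eIF3 gene, differed least after Eif3f. It stood at 138 and 132 FPKM in controls and at 157 and 142 in the labelled double knockout, a log2 difference of 0.15 ± 0.16 (SE) with a limma adjusted p of 0.599. Eif3f, which stood at 131 and 105 FPKM against 140 and 114, overlapped between the groups, and its spread between replicates exceeded the difference of the means. Eif3k stood at 122 and 102 FPKM against 137 and 122. Eif3l averaged 62.6 ± 6.36 and 83.1 ± 5.20 FPKM, and Eif3m 69.4 ± 1.92 and 87.1 ± 3.15 (SD, n = 2 each). The limma adjusted p-values of Eif3k, Eif3l and Eif3m were 0.495, 0.192 and 0.237. In each library Eif3h was the highest subunit and Eif3j1 the lowest. Per transcript length they differed 5.65-fold and 5.23-fold in controls and 5.11-fold and 4.79-fold in the labelled double knockout. Eif3j1, the loosely attached subunit, stood at 24.4 and 25.3 FPKM against 30.7 and 29.7 in the normalized table (limma, adjusted p = 0.281). Its level is uncertain, since the files for single libraries divide this locus between Eif3j1 (0.0800 to 2.92 FPKM) and its near-identical neighbour Eif3j2 (17.5 to 24.9 FPKM).

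**Figure D4:**
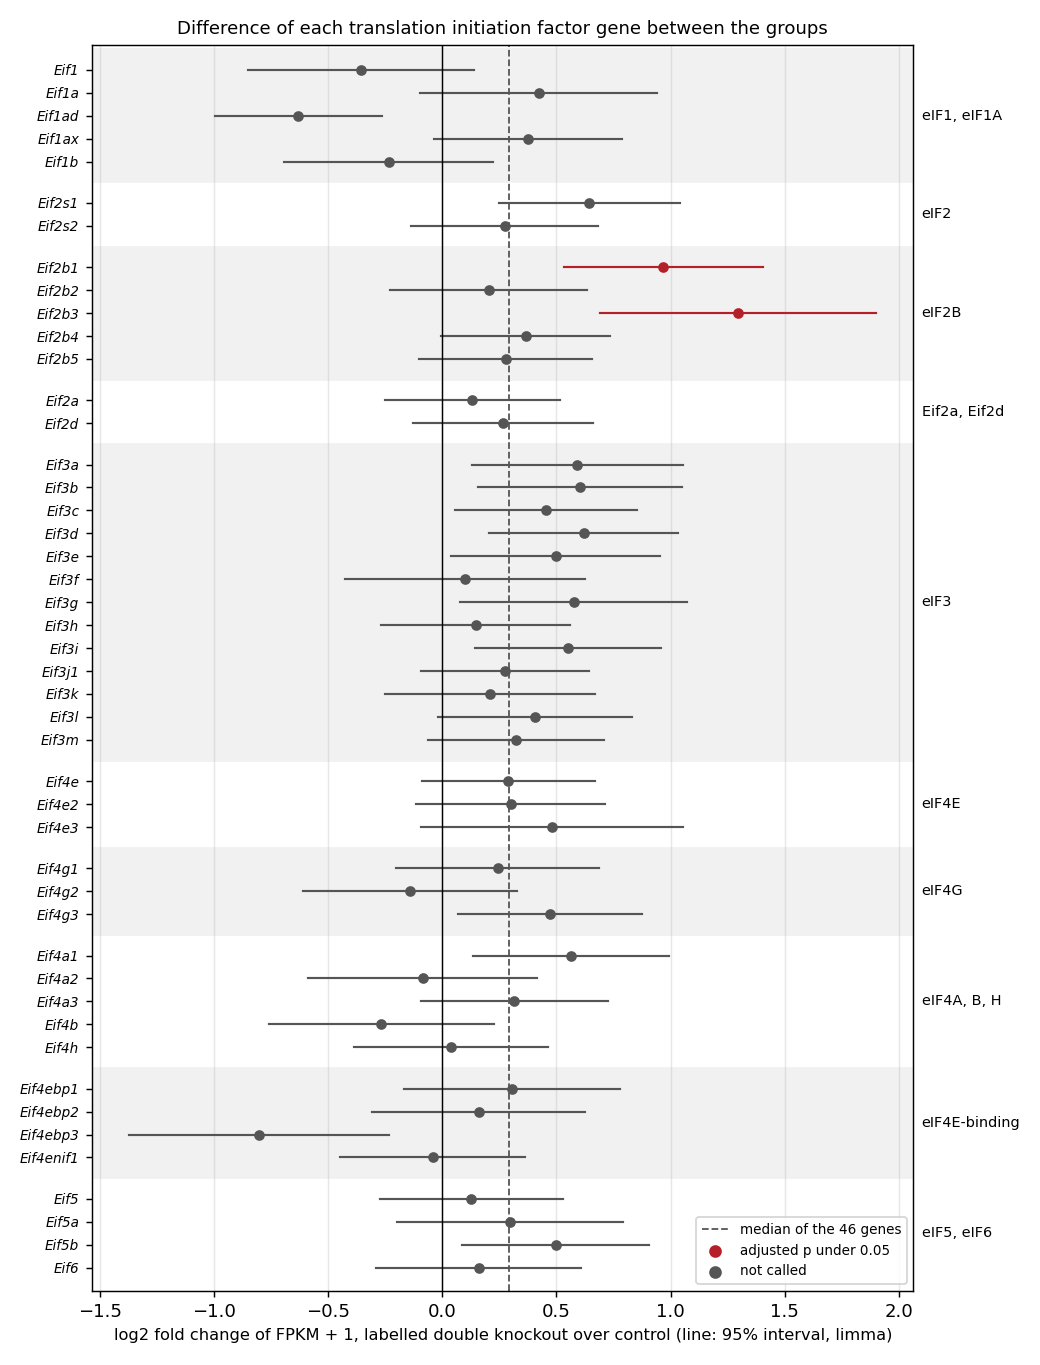
The log2 fold change of FPKM + 1, labelled double knockout over control, of each of the 46 genes, with its 95% interval from limma and the median of 0.29 (dashed). Eif2b1 and Eif2b3 (red) were called, and the 13 eIF3 genes lie between 0.10 and 0.62.

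The eIF4 genes were more mixed, with 10 of 15 above 0, beside 52.3% of all genes tested, and none called. Of the 15, Eif4h, Eif4ebp2, Eif4g2, Eif4a2 and Eif4enif1 changed sign under another processing or without 1 library. Eif4a1, the gene of the main RNA helicase that unwinds the leader of an mRNA, was the most abundant. It stood at 229 and 227 FPKM in controls and at 328 and 346 in the labelled double knockout. The groups lay far apart relative to the spread within them, yet the log2 fold change of 0.56 ± 0.17 (SE) missed the threshold (limma, adjusted p = 0.105, 95% interval 0.13 to 0.99). Eif4a2, the gene of a close relative of the helicase, overlapped between the groups, at 175 and 165 FPKM in controls and 182 and 141 in the labelled double knockout. The ratio of Eif4a1 to Eif4a2 was 1.31 and 1.37 in controls and 1.81 and 2.45 in the labelled double knockout. Reads may be shared among the Eif4a1 copies and Eif4a2. Eif4a3, a helicase of the exon junction complex that is named for its likeness and is not an initiation factor of the cap, averaged 40.8 ± 3.80 and 51.0 ± 3.06 FPKM (SD, n = 2 each, limma, adjusted p = 0.268). Of the proteins that stimulate the helicase, Eif4b stood at 113 and 107 FPKM in controls and 104 and 80.2 in the labelled double knockout, and Eif4h at 159 and 177 against 177 and 168 (limma, adjusted p = 0.418 and 0.907).

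The cap-binding protein gene Eif4e stood at 26.5 and 24.6 FPKM in controls and 30.8 and 32.1 in the labelled double knockout. Its relatives stood at 32.7 and 34.7 against 45.1 and 38.6 FPKM for Eif4e2, which binds the cap more weakly, and at 3.51 and 5.40 against 6.49 and 6.48 for Eif4e3. In all 3 both labelled double knockout libraries lay above both controls, an order seen in 31.2% of all genes tested. The limma adjusted p-values of the 3 genes were 0.271, 0.290 and 0.237. Among the scaffolds, Eif4g1 averaged 86.9 ± 10.2 and 103 ± 7.47 FPKM and Eif4g3 7.27 ± 0.632 and 10.4 ± 0.342 (SD, n = 2 each, limma, adjusted p = 0.415 and 0.130). Eif4g2, whose protein lacks the site for the cap-binding protein and serves cap-independent initiation, averaged 123 ± 17.8 and 111 ± 6.57 FPKM, with overlapping groups (SD, n = 2 each, limma, adjusted p = 0.653).

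The repressors of the cap-binding protein did not share a direction. Eif4ebp3 had the greatest difference of the 15 eIF4 genes. It stood at 12.7 and 13.0 FPKM in controls and at 8.53 and 5.63 in the labelled double knockout, where both libraries were below both controls. Its log2 difference was -0.80 ± 0.22 (SE) with a limma adjusted p of 0.0907, and the 95% interval ran from -1.37 to -0.23. Eif4ebp1 stood at 16.3 and 20.0 FPKM in controls and at 24.6 and 20.6 in the labelled double knockout, and Eif4ebp2, the most abundant of the 3, at 35.6 and 33.2 against 43.5 and 34.1 (limma, adjusted p = 0.342 and 0.613). The ratio of Eif4ebp3 to Eif4ebp1 was 0.778 and 0.653 in controls and 0.347 and 0.273 in the labelled double knockout, lower in both of the latter libraries. Eif4enif1, which carries the cap-binding protein into the nucleus, averaged 14.5 ± 0.564 and 14.0 ± 1.39 FPKM (SD, n = 2 each).

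The 5 eIF1 genes were divided and none was called. Both labelled double knockout libraries lay below both controls in 3 (29.5% of all genes tested did so). In the other 2 genes they lay above both controls (31.2% did so). Eif1, which keeps the ribosome from settling on a wrong start codon, was the most abundant of the 46 genes in controls, at 389 and 417 FPKM, and stood at 345 and 287 in the labelled double knockout. Its log2 difference was -0.36 ± 0.19 (SE) with a limma adjusted p of 0.294. Its close relative Eif1b stood at 25.8 and 20.2 FPKM against 19.2 and 19.3. Eif1ad, which encodes a protein with an eIF1A-like domain, stood at 30.0 and 31.0 FPKM in controls and at 19.1 and 19.6 in the labelled double knockout. Replicates of Eif1ad were close together in both groups, and its log2 difference was -0.63 ± 0.14 (SE) with a limma adjusted p of 0.0602. Its locus overlaps that of Banf1, and strand was not stated, so reads of these neighbours may mix. The genes of eIF1A itself, which works with eIF1 during scanning, lay the other way. Eif1a stood at 25.6 and 34.9 FPKM against 38.6 and 42.3, and the X-linked Eif1ax at 56.4 and 50.9 against 66.0 and 73.8 (limma, adjusted p = 0.247 and 0.209).

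Factors of subunit joining were also not called. Eif5a, whose protein carries the modified residue hypusine and acts mainly in elongation and termination, was the most abundant, at 305 and 250.3 FPKM in controls and 328 and 352 in the labelled double knockout. Its log2 difference was 0.30 ± 0.19 (SE) with a limma adjusted p of 0.370. Eif5b, the GTPase that joins the subunits, stood at 11.0 and 12.8 FPKM against 16.5 and 17.8, a log2 difference of 0.50 ± 0.16 (SE) with a limma adjusted p of 0.122. Both groups of Eif5b were tight and did not overlap. Eif5, which triggers GTP hydrolysis by eIF2, averaged 85.1 ± 6.34 and 92.9 ± 0.859 FPKM (SD, n = 2 each, limma, adjusted p = 0.640). Eif6, which keeps the large subunit from joining too early, stood at 159 and 172 FPKM in controls and 199 and 172 in the labelled double knockout. Its groups overlapped, with a log2 difference of 0.16 ± 0.17 (SE) and a limma adjusted p of 0.598.

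Summed over the 46 genes, the FPKM was 3285 and 3238 in controls and 3821 and 3647 in the labelled double knockout. The ratio of the means was 1.14, and as a percent of each library's summed FPKM the genes held 0.509% and 0.486% against 0.554% and 0.566%. By factor number, the sum of the eIF2 genes was 178 and 177 FPKM in controls and 234 and 241 in the labelled double knockout. The eIF3 sum was 964 and 886 FPKM against 1220 and 1173, and the eIF4 sum 1059 and 1096 against 1243 and 1158. In these 3 and in eIF5 (397 and 353 FPKM against 438 and 462) both labelled double knockout libraries lay above both controls. The eIF1 sum, most of it Eif1, lay the other way, at 527 and 554 FPKM against 488 and 442. No test was made on these sums, since the few abundant genes set them.

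**Figure D5:**
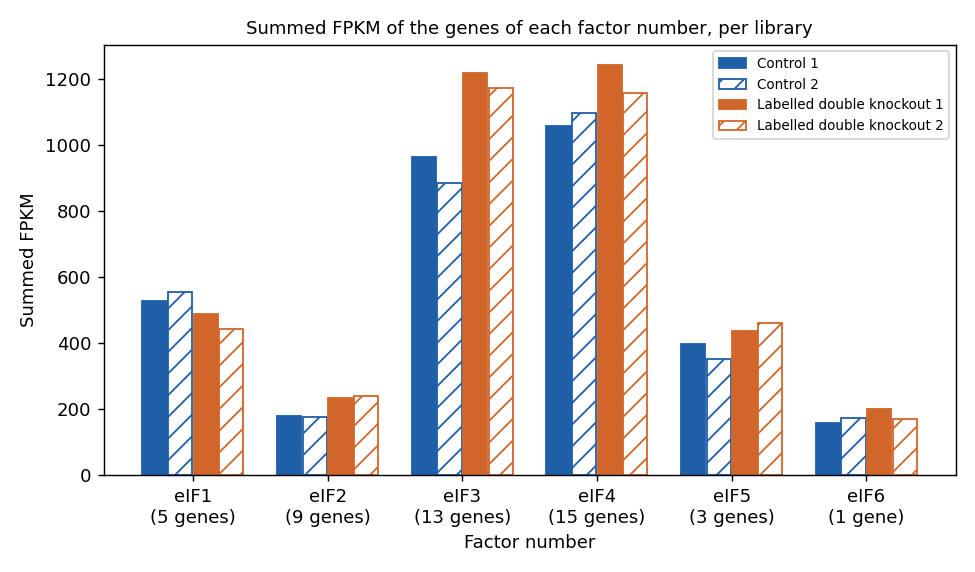
Summed FPKM of the genes of each factor number in each of the 4 libraries (bars, from 0). For eIF3 the controls lie at 964 and 886 and the labelled double knockout libraries at 1220 and 1173, whereas for eIF1 the order is opposite, at 527 and 554 against 488 and 442.

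Genes around initiation came from 7 lists with 94 entries, all found in the table and 87 of them tested. Limma called 5 higher and 1 lower, beside 9.57% of all genes called and 3.77% called higher, and the median log2 fold change was 0.26, beside 0.02 over all genes tested. Of 9 eIF2 alpha kinases and partners of the phosphatase none was called, beside 9.57% of all genes tested. At an unadjusted p under 0.05 limma had 1 lower, beside 15% of all genes, and 0 higher, beside 13.3%. The most abundant, Ppp1r15b, a phosphatase subunit that reverses the phosphorylation, stood at 56.5 and 67.9 FPKM in controls and 54.4 and 60.2 in the labelled double knockout. The left-out kinases were in this list. Eif2ak1 stood at 32.4 and 36.3 FPKM against 29.4 and 21.7, Eif2ak3 at 11.8 and 16.9 against 12.1 and 10.9, and Eif2ak4 at 1.62 and 1.73 against 2.77 and 2.42. Eif2ak2, in a row joined with Gm6548, differed between the controls more than between the groups (16.9 and 54.0 FPKM against 45.4 and 58.3).

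Phosphorylation of eIF2 alpha favours translation of the Atf4 mRNA, and the list of the ATF4 programme holds Atf4 and genes of the transcriptional response it leads. Of its 17 tested genes 2 were called higher and 1 lower, beside 9.57% of all genes called. An unadjusted limma p under 0.05 was reached by 10, with 6 higher, beside 13.3% of all genes, and 4 lower, beside 15%. Atf5, a transcription factor of this programme, stood at 4.11 and 3.56 FPKM in controls and rose to 15.3 and 10.4 in the labelled double knockout. Asns, the asparagine synthetase gene, rose from 16.3 and 13.2 FPKM to 35.5 and 30.0. Ddit3, which encodes the stress factor CHOP, fell from 24.8 and 24.9 FPKM to 12.6 and 13.9. These 3 had limma adjusted p-values of 0.0233, 0.0301 and 0.0326, and they did not share a direction. The call of Ddit3 ended with the FPKM estimated for each library alone (limma, adjusted p = 0.0804), with no limit on low levels (0.0509) and with the replicate block (0.0684). Without that limit Asns and Atf5 were not called either (0.0535 and 0.0577). Atf4 stood at 130 and 119 FPKM against 133 and 121, and Slc3a2, the most abundant, at 156 and 130 against 133 and 104 (limma, adjusted p = 0.929 and 0.434).

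Of the 19 tested genes of mTORC1 and MAPK signalling to the cap, 1 was called higher, beside 9.57% of all genes called and 3.77% called higher. Pdcd4, an inhibitor of the eIF4A helicase, rose from 50.0 and 52.4 FPKM in controls to 103 and 93.0 in the labelled double knockout (limma, adjusted p = 0.0304). Fkbp8, the most abundant there, stood at 141 and 144 FPKM against 146 and 117. Among 13 auxiliary initiation proteins 1 was called, beside the same 9.57% of all genes. This was Abce1, which splits ribosomes for recycling and rose from 20.3 and 20.6 to 32.9 and 38.5 FPKM (limma, adjusted p = 0.0491). That call lay close to the threshold and ended with a pseudocount of 5 (0.0502), without the intensity trend (0.0597), with no limit on low levels (0.0673) and with the replicate block (0.0906). All 13 had log2 fold changes above 0, beside 52.3% of all genes tested. Ddx3x, the helicase gene with the highest level, stood at 87.9 and 143 FPKM against 140.3 and 140.1. Among 15 elongation and release factors 1 was called, again beside 9.57% of all genes. This was Etf1, the factor that reads stop codons, which rose from 40.8 and 45.7 to 80.6 and 84.2 FPKM (limma, adjusted p = 0.0308). With the replicate block the limma adjusted p was 0.0655 for Etf1 and 0.0706 for Pdcd4. The most abundant of these factors, Eef1a1, stood at 3153 and 3341 FPKM against 4141 and 3346.

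Limma called none of the 5 tested poly(A)-binding protein genes and partners and none of the 9 mitochondrial initiation and elongation factors. Among all genes tested 9.57% were called. At an unadjusted p under 0.05 limma had 1 lower in the first list and 1 higher in the second. Of all genes, 15% were lower and 13.3% higher at that threshold. Pabpc1 stood at 304 and 246 FPKM against 325 and 278, and Tufm at 93.6 and 81.1 against 115 and 113. Of the 6 called related genes, Atf5 kept its call without double knockout replicate 2 (limma, adjusted p = 0.0431) and lost it without each other library (0.0881 and 0.115 for control replicates 1 and 2, 0.0748 for double knockout replicate 1). The other 5 lost theirs without any 1 library, with limma adjusted p-values from 0.0772 to 0.194.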

How the data were processed

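RNA-seq of jejunal epithelium from 2 control mice and 2 mice labelled double knockout was analysed, with groups read from their titles. TopHat2 2.0.9, Cufflinks 2.1.1, Cuffnorm, Cuffdiff and build mm9 are listed, per the submitters' processing notes, but not their roles. The normalized table (23735 rows) gives no unit in its header. Its values are called FPKM here because Cuffnorm is among the listed tools, and the authors deposited FPKM for each library alone as well. The authors' deposited comparison holds group FPKM, p-values, q-values and a test statistic score, the last not used. No counts were used, so depth is unknown and no counting error is given. Summed FPKM per library was 643708 to 689276.

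Rows sharing a symbol were summed (160 symbols), and rows naming only short RNAs were left out. The test was limma 3.58.1 (R 4.3.3) on log2(FPKM + 1) of the 10883 genes that averaged 1 FPKM or more, with genotype as the term, an intensity trend, two-sided, and Benjamini-Hochberg adjustment over all genes tested; the pseudocount of 1 understates the change of low genes. An exact permutation of 2 against 2 cannot go below p = 0.333. The procedure was also run on simulated data with normal noise and a spread smoothed over expression level. That run does not show how the test performs with the spread of single genes here. Values are given in full for called genes and, within each factor number, for the most abundant gene and that with the greatest difference; others are given by role. Members and lists were chosen with earlier results of these data known. Locus starts were converted to count from 1. Loci of Eif5b, Eif4a2, Eif1ad, Eif3j1, Eif3m and Eif2a overlap another gene, and strand was not stated.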

Additional observations from a re-analysis of the deposited data

How the results depend on the processing

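The direction of the 12 genes given in full was the same under all 13 alternatives run (12 for Eif2b3, which a limit of 5 FPKM removes). Of the 46 genes, 35 were above 0 and 5 below 0 in all 14 fits, and 6 changed sign (Eif3f, Eif4h, Eif4ebp2, Eif4g2, Eif4a2 and Eif4enif1). The changed limits on low levels, the fit without the intensity trend and the replicate block leave each log2 fold change as it was. Those fits could not change a sign, so only the remaining fits bear on direction. The count of 2 called initiation factors was 1 (Eif2b1) with a limit of 5 FPKM and 0 with no limit but a mean above 0 (limma, 19 at an unadjusted p under 0.05), where 16711 genes were tested. With the replicate block it was also 0 (limma, 11 at an unadjusted p under 0.05). In the whole table limma called 1041 genes in the main fit, 707 with no limit and 786 with the replicate block. In the same order 3079, 3814 and 2756 genes had an unadjusted p under 0.05 (limma), of 10883, 16711 and 10883 tested. The titles give both groups replicate numbers 1 and 2, but no label says that same-numbered mice shared a litter or day. For that reason the main fit held no block. Deviations of same-numbered libraries had a correlation of -0.00481 over genes, which cannot show whether mice were paired. Leaving out 1 library gave 0 to 1 called initiation factors (5 to 9 at an unadjusted p under 0.05), 171 to 693 called genes in the whole table and 0 to 1 called related genes. The count of called related genes, 6 here, was 2 with no limit (Etf1 and Pdcd4) and 3 with the replicate block, of which Atf5 and Asns were among the 6. The median log2 fold change of the initiation factors was 0.45 with the FPKM estimated for each library alone. The log2 ratio of their summed FPKM, 0.20 here, was 0.34 with those values and 0.29 after quantile normalization. The causes of these changes were not tested. The other alternatives (pseudocounts of 0.1 and 5, median centring, quantile normalization, FPKM of each library alone, no intensity trend) kept the calls of Eif2b1 and Eif2b3.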
